A study of Mus musculus with 2 samples.

Results

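The contractile genes of smooth muscle and of myofibroblasts were described in skin wounds 5 days after injury. They are 10 of the 31053 genes counted, found by their symbols: *Acta2*, *Tagln*, *Myl9*, *Cnn1*, *Myh11*, *Des*, *Tpm1*, *Tpm2*, *Actg2* and *Lmod1*. All 10 had UMIs (unique molecular identifiers, which count RNA molecules) in both libraries. Each of the 2 libraries holds live (7AAD-negative) cells sorted from back skin wounds that were taken with a 10 mm punch from male C57BL/6 mice of 7 to 9 weeks, with 3 mice pooled per group. By the labels both groups were *Mrc1-DTR* mice, in which the *Mrc1* promoter drives the diphtheria toxin receptor, and one group received PBS and the other diphtheria toxin (DTX), whereas the study's methods describe the controls as wild-type mice given the toxin. By the study's methods the punch was wider than the wounds, so cells can also come from the skin around them. The wounds were splinted, which hinders contraction of the skin. Each condition has 1 library, so the spread between mice or captures is unknown, no test was run, and every interval (95%) below covers counting error only.

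The files held 23089 cell barcodes (12058 labelled PBS and 11031 labelled DTX), of which 15514 had 500 genes or more with mitochondrial UMIs at 6% or below, and 14557 were kept after removal of doublets, with medians of 9580 and 7286 UMIs per cell. The libraries shared 13 barcodes among kept cells. Levels are given as CPM (the share of a gene among the UMIs of the cells, scaled to 1000000), and as each captured molecule is counted once at its 3' end, they were not divided by gene length. In macrophage-like cells the targeted gene, *Mrc1*, had 493 CPM (478 to 508) in the library labelled PBS and 429 (422 to 437) in the one labelled DTX, but over all kept cells it was at 65.4 (63.6 to 67.2) and 268 (264 to 272) CPM, with macrophage-like cells at 21.2% and 66.9% of them. The level in macrophage-like cells was thus lower in the library labelled DTX. The level over all kept cells was higher there, but it also rises with the share of macrophage-like cells, so it cannot decide which library is which. The study's text gives these barcode numbers to the groups in reverse, but it puts the larger share of immune cells in the depleted group, the order the labels have here. Which library is which was not settled beyond the labels, on which all directions rest, and PBS and DTX stand below for the libraries so labelled.

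Smooth muscle contracts when myosin, whose heavy chain in these cells is the product of *Myh11* and whose regulatory light chain is that of *Myl9*, pulls on filaments of smooth muscle actin (*Acta2* in vessels, *Actg2* mainly in visceral muscle). Tropomyosins (*Tpm1*, *Tpm2*), calponin (*Cnn1*) and transgelin (*Tagln*) lie along these filaments, leiomodin (*Lmod1*) nucleates them, and desmin (*Des*) forms the intermediate filaments of muscle. In skin the genes are known from mural cells of vessels, that is smooth muscle cells and pericytes, from the muscles of hairs and, for *Acta2*, *Tagln* and their like, from myofibroblasts, the fibroblasts that pull on the matrix of a wound. Many of these genes are driven by serum response factor, which binds a sequence called the CArG box.

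Transcription starts of 7 of the 10 genes (*Acta2*, *Myl9*, *Cnn1*, *Des*, *Tpm1*, *Tpm2*, *Lmod1*) were matched in RefSeq by symbol. The windows of *Acta2*, the gene by which myofibroblasts are usually recognised, and of *Myl9* are shown because they were the only ones of the 7 with a CArG box or a near match. They run from 250 bases before to 50 after the start, on the strand of the gene, with CArG boxes and near matches (1 other base in the core of A and T) in capitals. The *Acta2* window is at chr19:34255324-34255623 (minus strand) and that of *Myl9* at chr2:156775214-156775513 (plus strand) of GRCm38.p6.
Acta2: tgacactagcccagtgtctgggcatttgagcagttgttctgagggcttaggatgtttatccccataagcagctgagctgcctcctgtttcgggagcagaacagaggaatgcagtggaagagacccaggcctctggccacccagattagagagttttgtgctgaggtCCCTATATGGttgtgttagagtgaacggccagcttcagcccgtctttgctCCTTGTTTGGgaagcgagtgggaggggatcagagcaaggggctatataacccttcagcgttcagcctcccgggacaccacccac
Myl9: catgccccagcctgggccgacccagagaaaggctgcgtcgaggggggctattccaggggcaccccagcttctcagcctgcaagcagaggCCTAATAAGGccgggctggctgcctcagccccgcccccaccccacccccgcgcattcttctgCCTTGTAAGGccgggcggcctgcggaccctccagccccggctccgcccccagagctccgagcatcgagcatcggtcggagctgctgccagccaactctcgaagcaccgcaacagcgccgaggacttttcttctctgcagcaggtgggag
A full CArG box was found 161 bases before the start of *Myl9*, with a near match 99 bases before it, and *Acta2* held near matches 84 and 34 bases before its start. Of 32851 windows of the same length, 1.63% held a full box and 9.98% a full box or near match, and since the pattern reads alike on both strands, 1 search covered both. A match describes the letters and shows no binding.

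In GENCODE M21 (GRCm38), *Acta2* lies at chr19:34241090-34255590 (minus strand), *Myl9* at chr2:156775420-156781658 (plus), *Myh11* at chr16:14194535-14291372 (minus) and *Actg2* at chr6:83512905-83536265 (minus). *Tagln* overlaps *Pcsk7* and *Gm48529*, and *Des* overlaps *Gm15179*, each on the opposite strand, and the other 8 genes overlap no other gene of the files. How reads that fit more than 1 of the closely similar actin genes were assigned is not given in the sources used here, so the level of *Actg2* beside *Acta2* is uncertain.

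The contractile genes other than *Tpm1* and *Tpm2* were concentrated in a small cluster of pericyte-like cells. This cluster held 56 cells labelled PBS and 109 labelled DTX, 0.705% and 1.65% of kept cells, and was found without using the 10 genes or 30 partner genes. It was named from *Rgs5*, its leading gene, and from *Notch3*, *Abcc9*, *Pdgfrb* and 7 further markers of 12 that were raised. Of all *Acta2* UMIs of kept cells, 57.9% in PBS and 77.1% in DTX lay in these cells, and of *Myh11* UMIs 86.7% and 94.5%. Of *Tpm1* UMIs only 6.22% and 22.4% lay there, and of *Tpm2* UMIs 11.7% and 39.8%. Of the UMIs of the 10 genes together, 24.3% and 51.8% lay in pericyte-like cells, beside 29.4% and 20.9% in fibroblast-like cells. The contractile genes together made up 18644 CPM (18358 to 18935) of pericyte-like cells in PBS and 12240 (12073 to 12409) in DTX, against 557 and 852 CPM in fibroblast-like cells (3069 and 660 cells). Per cell, the 10 genes took between 0.178% and 4.65% of the UMIs of a pericyte-like cell in PBS (median 1.64%) and between 0.0703% and 7.79% in DTX (median 1.01%). The cells thus ranged widely within both libraries, and the ranges overlapped.

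**Figure D1:**
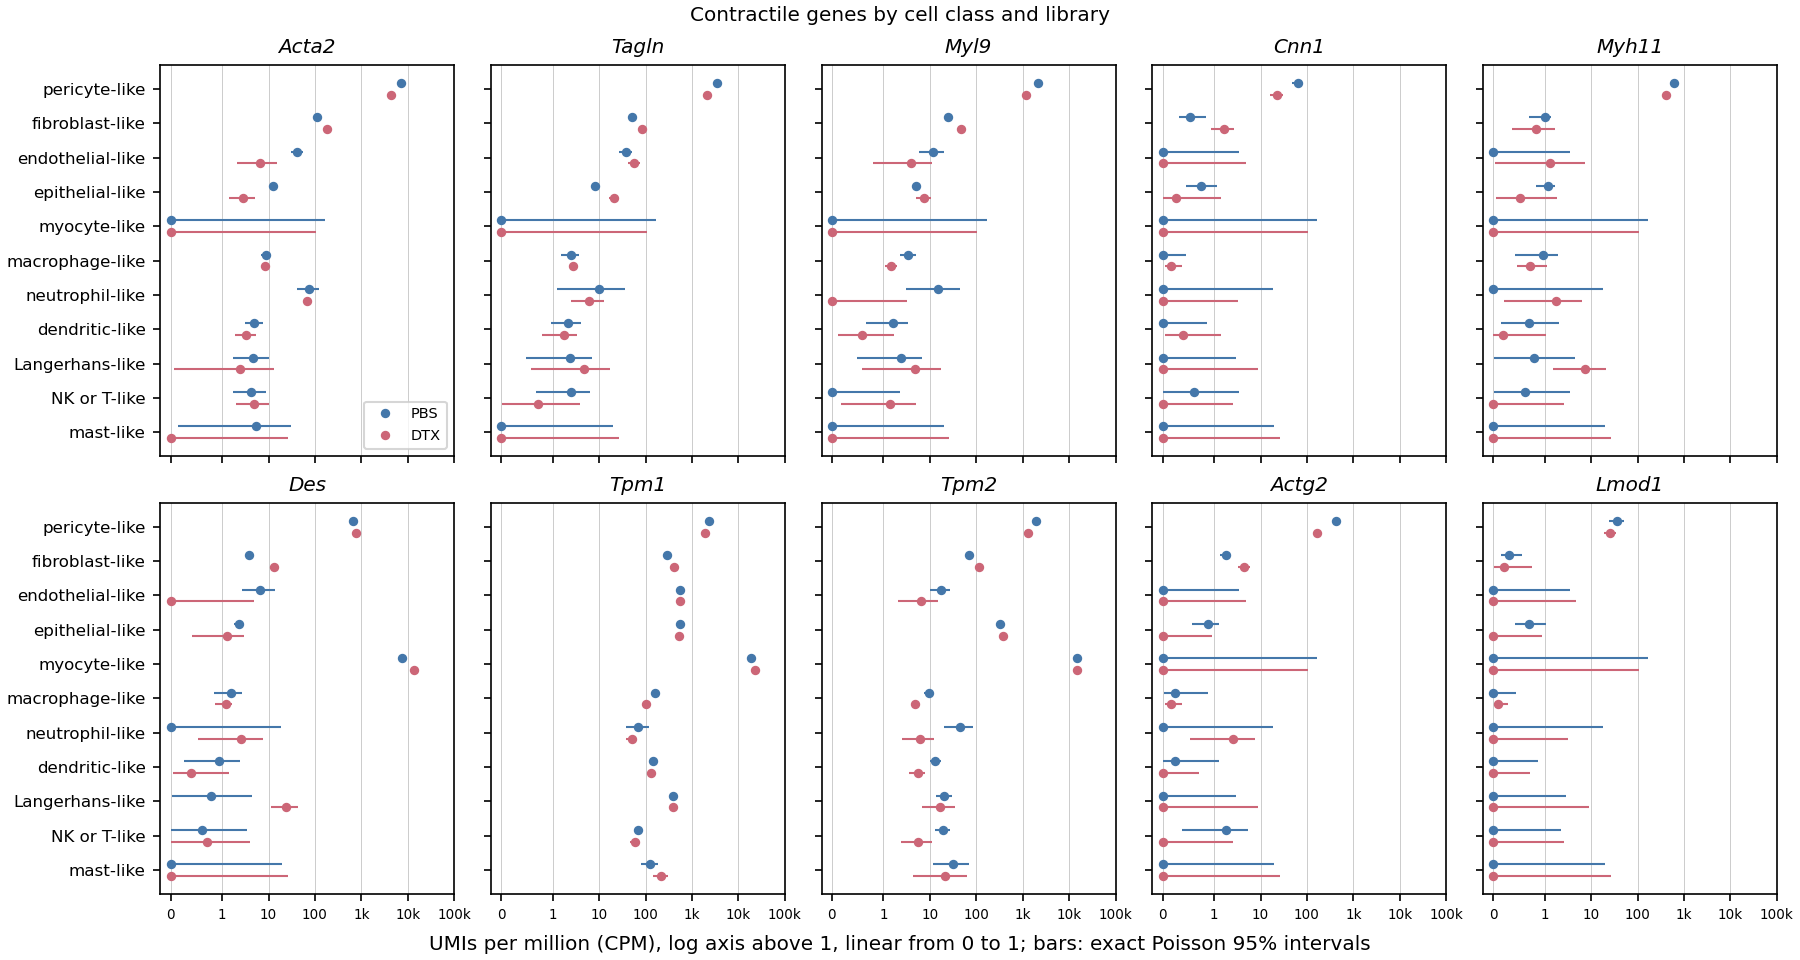
Level of each contractile gene in each cell class, summed over its cells, in CPM (log axis above 1, linear from 0 to 1), for the libraries labelled PBS (blue) and DTX (red), with exact Poisson 95% intervals as bars. All 10 genes are higher in pericyte-like than in fibroblast-like cells in both libraries, *Des*, *Tpm1* and *Tpm2* are highest in the 7 and 11 myocyte-like cells, and *Tpm1* is spread over all classes.

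All 9 contractile genes with at least 50 UMIs in the comparison were at least 2-fold higher in pericyte-like than in fibroblast-like cells in PBS, where 15.9% of all genes were, and likewise 9 in DTX, where 8.17% of all genes were. The gene left out, *Lmod1*, had 31 and 43 UMIs in pericyte-like and 11 and 2 in fibroblast-like cells. *Myh11*, the myosin heavy chain that is the usual sign of smooth muscle, stood furthest apart, at 621 CPM (569 to 675) in pericyte-like against 0.999 (0.696 to 1.39) in fibroblast-like cells in PBS, and at 400 CPM (370 to 431) against 0.823 (0.355 to 1.62) in DTX. *Acta2* was at 7031 CPM (6855 to 7210) against 111 in PBS and at 4319 (4220 to 4420) against 182 in DTX, a log2 ratio of 5.97 and 4.56 on the log2(CPM + 1) scale used for all ratios. Intervals of ratios are those of the ratio with nothing added. The smallest ratio among the 9 genes was that of *Tpm1*, at 2.95 in PBS and 2.25 in DTX, followed by *Tpm2* in PBS (4.77) and by *Cnn1* in DTX (3.16, from 38 and 16 UMIs). Since classes were made from the same cells, these contrasts describe the classes and are no test.

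The tropomyosins and desmin were also carried by cells in which the other contractile genes were absent or low. In the 7 myocyte-like cells in PBS and 11 in DTX (striated muscle by *Acta1*, *Ckm* and *Mylpf*), *Tpm1* reached 19081 and 22751 CPM, *Tpm2* 14891 and 14825 CPM and *Des* 7560 and 13856 CPM, and the other 7 genes had 0 UMIs. These cells are few and shallow, and 0 UMIs there had exact Poisson upper bounds of 168 CPM in PBS and 105 CPM in DTX. Epithelial-like cells held *Tpm1* at 556 and 523 CPM and *Tpm2* at 328 and 382 CPM, and all of the other 8 genes were at 20.6 CPM or less there. Endothelial-like cells held *Tpm1* at 552 and 556 CPM with *Tpm2* at 17.2 and 6.48 CPM, and Langerhans-like cells *Tpm1* at 393 and 397 CPM with *Tpm2* at 20.5 and 16.8 CPM. *Tpm1* was thus high with little *Tpm2* in endothelial-like and Langerhans-like cells, and high together with *Tpm2* in epithelial-like cells.

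*Acta2* outside the mural and fibroblast classes was low, and in places rested on single cells. NK or T-like cells, which should not make smooth muscle actin, held *Acta2* at 4.30 and 4.94 CPM, and macrophage-like cells at 8.88 and 8.49 CPM. In epithelial-like cells in PBS 1 cell carried 246 of 347 *Acta2* UMIs, and in endothelial-like cells in PBS 1 cell carried 33 of 44. Neutrophil-like cells stood out, with *Acta2* at 74.8 CPM (15 UMIs) in PBS and 68.9 CPM (79 UMIs in 61 of 461 cells, at most 5 per cell) in DTX. In DTX their ratio of *Tagln* to *Acta2* differed from that of pericyte-like and fibroblast-like cells. It was 8.86 *Tagln* UMIs per 100 *Acta2* UMIs (3.45 to 19.1), against 48.7 (46.7 to 50.7) in pericyte-like and 44.9 (41.2 to 48.8) in fibroblast-like cells. In PBS it was 13.3 (1.48 to 57.3, from 2 *Tagln* UMIs), an interval that includes the 49.2 of pericyte-like and 44.9 of fibroblast-like cells. A ratio apart from the 48.7 of pericyte-like cells in DTX was not particular to neutrophil-like cells. It was 32.8 (25.4 to 42.1) in macrophage-like, 880 (350 to 2844) in endothelial-like and 727 (385 to 1515) in epithelial-like cells. The intervals of dendritic-like, NK or T-like and Langerhans-like cells included the 48.7. Neutrophil-like cells are shallow, with medians of 1229 and 1922 UMIs.

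Between the libraries, 9 of the 10 contractile genes were lower in pericyte-like cells in DTX than in PBS, and *Des* was not. Of all 5596 genes with at least 50 UMIs, 51.1% were lower in DTX. *Acta2*, the actin, was at 7031 CPM in PBS (6072 UMIs) and 4319 CPM in DTX (7239 UMIs), a log2 ratio of -0.70 (-0.75 to -0.65). *Tagln*, which bundles actin, was at 3460 and 2101 CPM (-0.72, interval -0.79 to -0.65), and *Myl9*, the light chain, at 2158 and 1198 CPM (-0.85, interval -0.94 to -0.76). *Myh11* was at 621 and 400 CPM (-0.63, interval -0.80 to -0.47). These 4 genes, of the thin filament and of myosin, were thus lower by similar factors.

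The genes past 2-fold were the less abundant *Actg2*, at 419 CPM (362 UMIs) and 168 CPM (281 UMIs; -1.32, interval -1.55 to -1.09), and *Cnn1*, at 63.7 CPM (55 UMIs, 20 of them in 1 cell) and 22.7 CPM (38 UMIs; -1.45, interval -2.13 to -0.87). They were 2 of 10, where 1.93% of 5596 genes were at least 2-fold lower and 2.27% at least 2-fold higher in DTX. *Tpm2* at 1894 and 1311 CPM (-0.53, interval -0.62 to -0.44) and *Tpm1* at 2287 and 1939 CPM (-0.24, interval -0.32 to -0.16) differed less. *Lmod1*, at 35.9 CPM (31 UMIs) and 25.7 CPM (43 UMIs), had an interval that spans no difference (-1.18 to 0.23). *Des* was at 674 and 756 CPM, a log2 ratio of 0.17 (0.02 to 0.31). The median over the 10 genes was -0.67, beside -0.01 over all genes with at least 50 UMIs. Of the 12 pericyte markers 8 were lower in DTX, beside 51.1% of all genes with at least 50 UMIs. The lower markers included *Cspg4* (127 and 62.05 CPM), *Gja4* (99.6 and 64.4 CPM) and *Ndufa4l2* (682 and 541 CPM). *Rgs5* (4749 and 5905 CPM) and *Abcc9* (144 and 271 CPM) were among the 4 higher ones, so that the 12 markers summed to 7361 CPM in PBS and 8306 in DTX, and without *Rgs5* to 2612 and 2401 CPM. None of them was at 0 in either library. The 10 fibroblast markers summed to 18573 and 13304 CPM and the 11 epithelial markers to 653 and 324 CPM in the same cells, and their part in the difference was not tested.

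**Figure D2:**
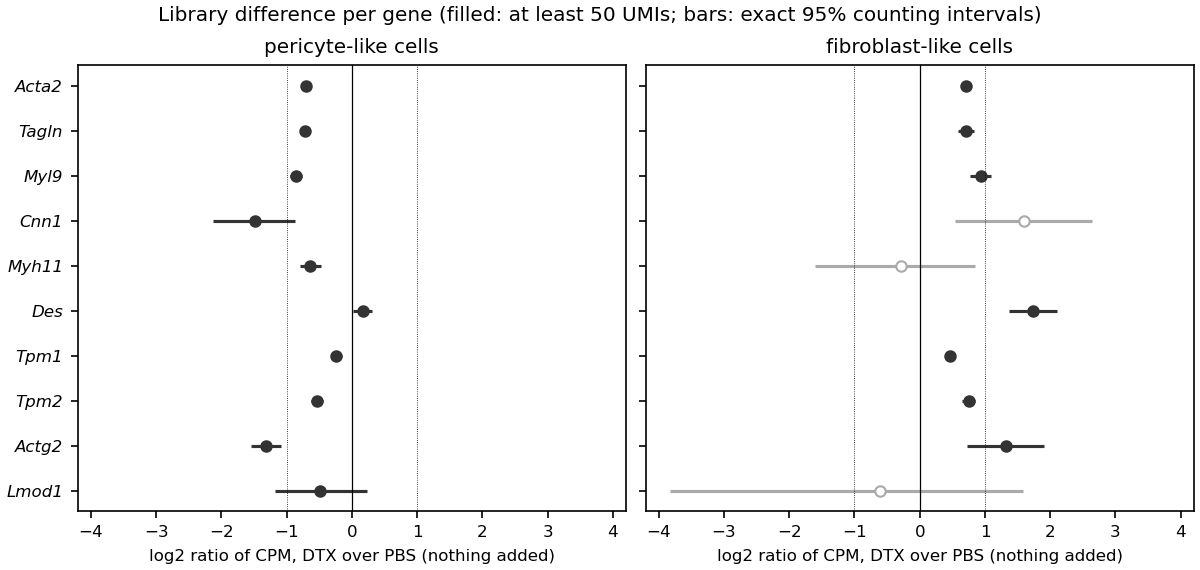
Log2 ratio of CPM, DTX over PBS with nothing added, for each contractile gene in pericyte-like (left) and fibroblast-like cells (right), with exact 95% counting intervals; open points have fewer than 50 UMIs and dotted lines mark a 2-fold difference. In pericyte-like cells 9 of 10 points lie below 0, and in fibroblast-like cells all 7 filled points lie above 0.

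The share of cells with a UMI was lower in DTX for the same genes as the level, except *Tpm1*. After every cell was thinned to 2000 UMIs, *Acta2* was seen in 52 of 54 pericyte-like cells in PBS (96.3%, exact binomial interval 87.3% to 99.6%) and in 97 of 108 in DTX (89.8%, 82.5% to 94.8%). *Myh11* was seen in 66.7% (52.5% to 78.9%) and 46.3% (36.7% to 56.2%) of them, and *Des* in 57.4% (43.2% to 70.8%) and 73.1% (63.8% to 81.2%). *Tpm1*, whose level was lower in DTX, was seen in 51 of 54 and 106 of 108 cells (94.4% and 98.1%). In the NK or T-like cells *Acta2* was seen in 1 of 219 and 1 of 151 thinned cells (0.457% and 0.662%), at median depths of 6534 and 8059 UMIs before thinning, beside 14007 and 14834 in pericyte-like cells. The thinned intervals of *Acta2* and *Myh11* overlap between the libraries. At least 10 *Acta2* UMIs of 2000 were carried by 29 of 54 cells (53.7%) in PBS and 35 of 108 (32.4%) in DTX. A median pericyte-like cell showed 7 of the 10 genes in PBS and 6 in DTX.

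Pericyte-like cells fell into 3 clusters, and the genes varied among them. Cluster 0 was led by *Pi15* and *Igfbp5* (19 and 58 cells), cluster 1 by *Col15a1* and genes of dividing cells such as *Top2a* (26 and 38 cells), and cluster 2 by *Krt17* and *Krt14* (11 and 13 cells; 6 of 11 epithelial markers raised), with *Krt14* at 467 and 834 CPM against 36.0 and 20.1 CPM in cluster 0. By its leading genes cluster 2 would be named epithelial, but these rest on single cells: 1 cell held 38 of 44 *Krt14* UMIs in PBS and 133 of 137 in DTX, and 88 of 92 and 73 of 79 *Krt17* UMIs were in 1 cell. The cluster was kept among pericyte-like cells, and results without it are given below. Cluster 2 held the most *Myh11*, at 1666 CPM (157 UMIs) in PBS and 1102 CPM (181 UMIs) in DTX, with *Lmod1* at 180 and 104 CPM, while *Myh11* was at 676 and 381 CPM in cluster 0 and 418 and 267 CPM in cluster 1. Of the 6 vascular smooth muscle markers, it held the most *Nrip2* (202 and 146 CPM), *Map3k7cl* (149 and 104 CPM) and *Sncg* (817 and 432 CPM). *Tinagl1* was highest in cluster 0 (604 and 527 CPM, beside 520 and 384 CPM in cluster 2), and *Pln* and *Rergl* had at most 6 UMIs in any cluster. *Actg2* was lowest in cluster 2, with 17 UMIs in PBS and 3 in DTX, or 2.97 (1.72 to 4.80) and 0.300 (0.0618 to 0.880) UMIs per 100 of *Acta2*, against 6.28 (5.16 to 7.58) and 4.89 (4.10 to 5.78) in cluster 0.

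The library difference was not alike in the 3 clusters. The sum of the 10 genes was lower in DTX by a log2 ratio of -0.90 (-0.95 to -0.85) in cluster 0, -0.56 (-0.60 to -0.52) in cluster 1 and -0.29 (-0.37 to -0.21) in cluster 2. *Acta2* was at 8326 and 3913 CPM in cluster 0 and at 6672 and 4337 CPM in cluster 1, but at 6069 and 6083 CPM in cluster 2 (0.00, interval -0.15 to 0.15). Of the *Acta2* UMIs of cluster 2 (11 and 13 cells), 1 cell held 229 of 572 in PBS and 1 held 393 of 999 in DTX. Its ratio thus rests in large part on few cells, which the interval does not cover. Weighted to the cluster shares of PBS, the sum in DTX was at 12193 CPM and its log2 ratio -0.61, beside -0.61 unweighted. This weighting was added after seeing the data and has no interval. The part of the cluster shares in the difference was not tested. Without cluster 2, whose leading genes are those of another class, the ratio of the sum was -0.65 (-0.68 to -0.62) and that of *Acta2* -0.79 (-0.84 to -0.74). *Des* was above 0 in all 3 clusters, with intervals that span 0 in each.

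In fibroblast-like cells the genes went the other way. All 7 contractile genes with at least 50 UMIs were higher in DTX than in PBS, with a median log2 ratio of 0.74, beside 0.12 over all 11816 genes, of which 67.5% were above 0. *Acta2* was at 111 CPM (3902 UMIs) and 182 CPM (1770 UMIs), a log2 ratio of 0.70 (0.63 to 0.79). *Tagln* was at 49.98 and 81.7 CPM (0.70, interval 0.59 to 0.83), *Myl9* at 24.6 and 47.0 CPM (0.91, interval 0.77 to 1.10) and *Tpm2* at 68.4 and 115 CPM (0.74, interval 0.65 to 0.85). *Tpm1* was at 295 and 406 CPM (0.46, interval 0.41 to 0.51). *Des* was the only one past 2-fold, with 135 UMIs (3.85 CPM) and 125 UMIs (12.9 CPM, a log2 ratio of 1.51, interval 1.38 to 2.10), where 2.67% of genes were at least 2-fold higher in DTX and 1.4% at least 2-fold lower. Cluster 1, described below, held 99 *Des* UMIs in 36 cells in PBS and 105 in 16 cells in DTX, with 16 and 29 in 1 cell. After thinning, 1.54% (0.820% to 2.61%) and 1.36% (0.371% to 3.44%) of its cells had a *Des* UMI. The higher level of *Des* in DTX thus rests on few cells. *Actg2* had 62 and 43 UMIs (1.77 and 4.42 CPM; 0.97, or 1.32 with nothing added), and *Cnn1* (19 and 16 UMIs), *Myh11* (35 and 8) and *Lmod1* (11 and 2) were too rare to compare. Markers of other cells also differed in these cells: the 11 epithelial markers summed to 437.5 and 106 CPM and the 8 macrophage markers to 92.1 and 317 CPM, and their part was not tested. The 12 pericyte markers summed to 423 and 254 CPM, and without *Ndufa4l2* (294.5 and 129 CPM) to 129 and 124 CPM. *Rgs5* was at 3.83 and 7.51 CPM. Without clusters 5 and 6 the ratio of *Acta2* was 0.68 (0.60 to 0.77).

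The library difference of *Acta2* in fibroblast-like cells was small within their 2 largest clusters. Cluster 1, called *Plac8*-like after *Plac8*, *Mfap5*, *Prg4* and *Pi16*, held 3420 of 3902 *Acta2* UMIs in PBS and 1503 of 1770 in DTX, and its *Acta2* level was 269 CPM (260.1 to 278) and 286 (272 to 301), a log2 ratio of 0.09 (0.00 to 0.18). *Tagln* was there at 96.9 and 109.5 CPM (0.18, interval 0.03 to 0.32), *Myl9* at 52.4 and 58.1 CPM (0.15, interval -0.05 to 0.35) and *Tpm2* at 154 and 160 CPM (0.06, interval -0.06 to 0.17). In cluster 0, led by *Wfdc12* and *Cyp26b1*, *Acta2* was at 30.6 and 31.05 CPM, but 114 of its 342 UMIs in PBS were in 1 cell. *Acta2* was at 21.6 and 59.7 CPM in the fibroblast-like cells outside cluster 1. Of their UMIs, 8 in PBS and 187 in DTX lay in cluster 5 (23 and 45 cells), and 3 cells held 96.3% of the 187. The level outside cluster 1 in DTX thus rests largely on few cells. Of contractile genes with at least 50 UMIs, 6 of 7 in PBS and 4 of 6 in DTX were at least 2-fold higher in cluster 1 than in the other fibroblast-like cells, where 8.22% and 5.23% of all genes were. Cluster 1 made up 858 of 3069 fibroblast-like cells in PBS and 296 of 660 in DTX. With the clusters of DTX weighted by their share of UMIs in PBS, *Acta2* was at 118 CPM in DTX beside 111 in PBS (0.09), and the sum of the 10 genes at 695 CPM beside 557 (0.32).

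In cluster 0 other contractile genes were higher in DTX, while the summed level of *Acta2* was about the same in both libraries. *Tagln* was at 25.9 CPM (289 UMIs) and 67.1 CPM (149 UMIs; 1.34, interval 1.08 to 1.67), *Myl9* at 10.9 and 32.4 CPM (1.49, interval 1.13 to 2.00) and *Tpm2* at 23.0 and 62.6 CPM (1.41, interval 1.14 to 1.75). Of the 342 *Acta2* UMIs of this cluster in PBS, 114 were in 1 cell, so the contrast between *Acta2* and the other genes rests in part on that cell. Unthinned, 10.5% (8.83% to 12.4%) of its cells in PBS and 14.2% (9.58% to 20.0%) in DTX had an *Acta2* UMI. After thinning these were 2.96% (2.06% to 4.12%) and 3.87% (1.57% to 7.81%), and the intervals overlap. Some fibroblast markers also differed between the libraries in this cluster. *Coch* was at 225 and 998 CPM and *Crabp1* at 107 and 281 CPM, while *Gpnmb* was lower in DTX, at 688 and 449 CPM. Their part in the difference was not tested. Cluster 4 (63 and 26 cells, led by *Coch*, *Fmod* and *Tnmd*, a tendon gene) held *Tagln* with hardly any *Acta2*: 183 *Tagln* UMIs in 22 of 63 cells beside 7 *Acta2* UMIs in PBS, and 17 beside 0 in DTX. *Myl9* was there at 88.8 and 54.0 CPM and *Tpm1* at 525 and 491 CPM, and *Cnn1*, *Myh11*, *Des*, *Actg2* and *Lmod1* had 0 UMIs. Cluster 2 (752 and 61 cells, led by *Ctla2a* and *Gpx3*) and cluster 3 (134 and 18 cells, led by *Igfbp2*) held *Acta2* at 9.88 and 6.34 CPM and at 6.22 and 16.5 CPM. Of clusters led by genes of other classes, cluster 5 (*Cd74*, *Lyz2*) held 187 *Acta2* UMIs in DTX, of which 96.3% were in 3 cells, and cluster 6 (*Krt14*) held 32 and 2. The pooled direction did not hold in every cluster. Of contractile genes with at least 50 UMIs, all 3 in cluster 4 and 2 of 3 in cluster 2 were lower in DTX, beside 50.7% and 46.3% of all genes. All were higher in clusters 0, 1 and 5 (5, 7 and 5, beside 63.4%, 59.0% and 60.8% of all genes). Clusters 3 and 6 had only 1 and 2 such genes.

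**Figure D3:**
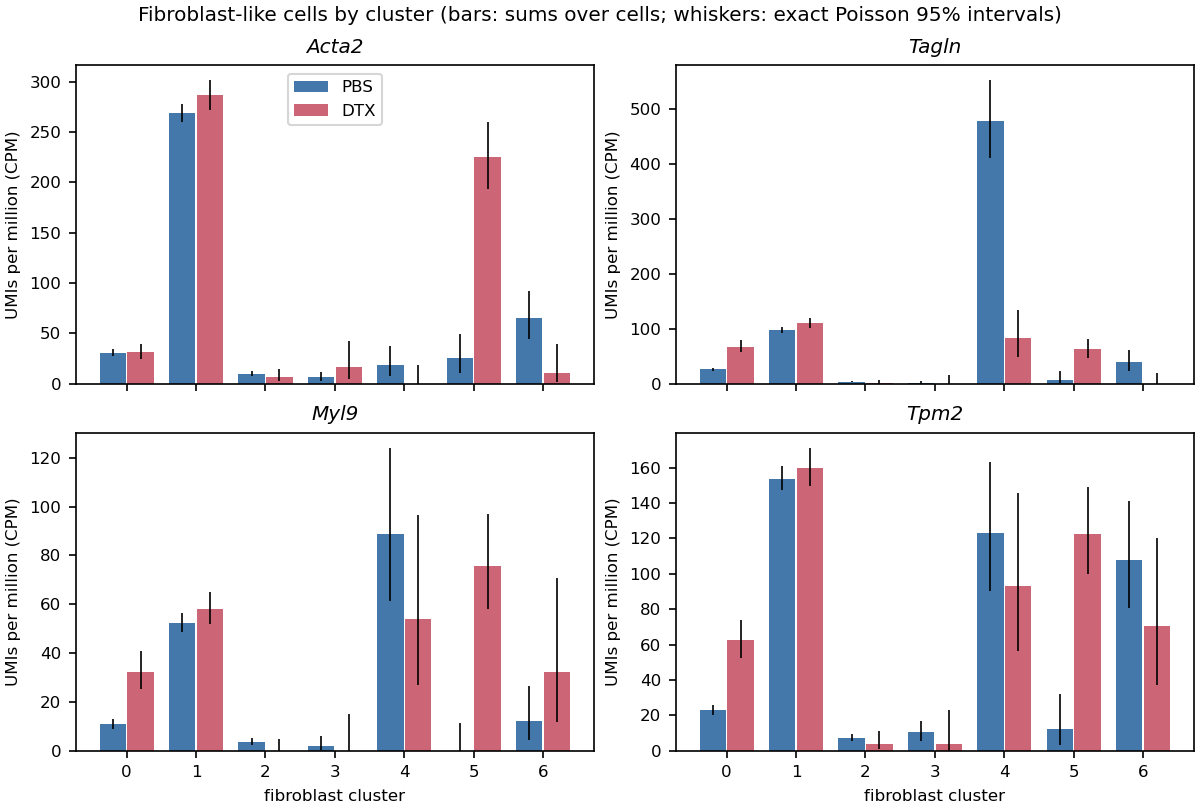
Levels of *Acta2*, *Tagln*, *Myl9* and *Tpm2* in the 7 clusters of fibroblast-like cells, in CPM, for PBS (blue) and DTX (red), with exact Poisson 95% intervals as whiskers. *Acta2* stands at 269 and 286 CPM in cluster 1 and at 30.6 and 31.05 CPM in cluster 0, and *Tagln* in PBS is highest in cluster 4, at 478 CPM.

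*Acta2* was concentrated in few fibroblast-like cells in both libraries. It was not seen at all in 2581 of 3069 cells in PBS and 534 of 660 in DTX, while single cells held up to 122 and 187 UMIs, and the 96 cells (3.13%) and 38 cells (5.76%) with at least 10 UMIs carried 79.6% and 88.4% of the total. After thinning, 6.43% (5.58% to 7.37%) of cells in PBS and 8.46% (6.44% to 10.9%) in DTX had an *Acta2* UMI, and unthinned 15.9% and 19.1% had one, at median depths of 11175 and 13950 UMIs. The intervals of the thinned shares overlap. Cells with at least 2 *Acta2* UMIs of 2000 were 2.58% (2.04% to 3.21%) and 4.77% (3.26% to 6.70%) of all fibroblast-like cells, and 8.03% (6.29% to 10.1%) and 9.15% (6.12% to 13.0%) of cluster 1. In cluster 0 they were 5 of 1147 and 1 of 181 cells.

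**Figure D4:**
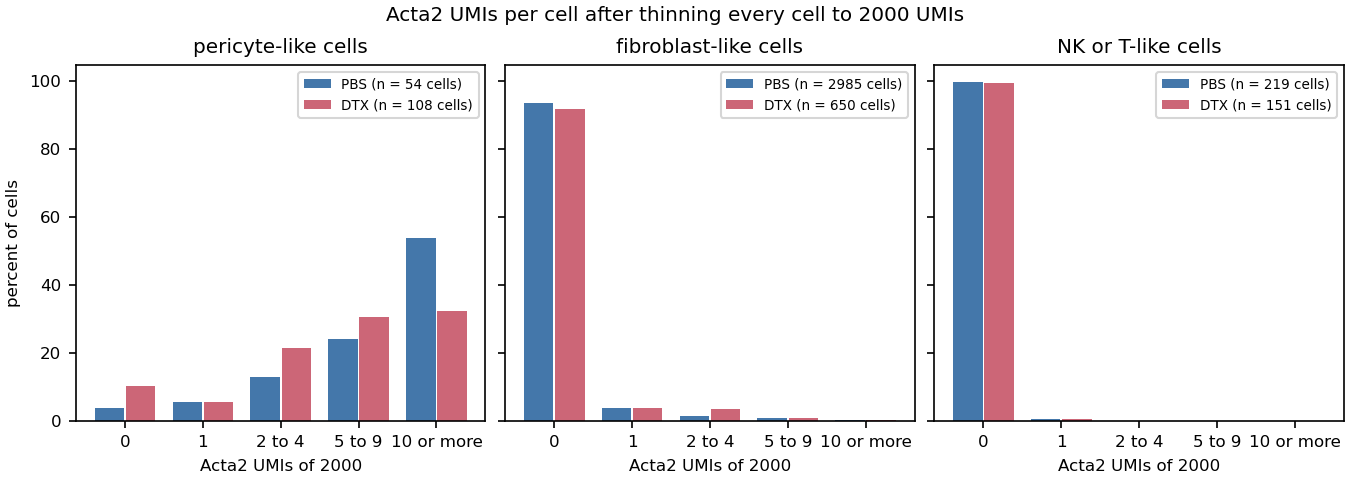
Percent of pericyte-like, fibroblast-like and NK or T-like cells by their number of *Acta2* UMIs after thinning to 2000 UMIs per cell, for PBS (blue) and DTX (red). Of pericyte-like cells 53.7% and 32.4% held 10 or more, of fibroblast-like cells 93.6% and 91.5% held none, and no NK or T-like cell held more than 1.

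The cells of cluster 1 with at least 2 *Acta2* UMIs of 2000 (68 in PBS and 27 in DTX) were set beside those with none (711 and 251), leaving out 68 and 17 cells with 1. This is a range within a cluster, chosen on *Acta2*, and not a cell type, and its cells were deeper (medians of 17887 against 14513 UMIs in PBS and 23121 against 16476 in DTX). The 5 other contractile genes with at least 50 UMIs, *Tagln*, *Myl9*, *Tpm1*, *Tpm2* and *Des*, were all at least 2-fold higher in the *Acta2*-high cells in both libraries, where 4.64% of genes were in PBS and 6.19% in DTX (8.35% and 9.75% were at least 2-fold lower). *Tagln* was at 650 against 23.5 CPM in PBS and 723 against 20.1 CPM in DTX, *Myl9* at 288 against 21.0 and 284 against 21.3 CPM, and *Tpm2* at 735 against 73.8 and 673 against 71.5 CPM. *Tpm1* was at 954 against 274 and 949 against 300 CPM. The levels in these cells were thus close to each other in the 2 libraries. *Des* was not, at 18.7 CPM (23 UMIs) in PBS and 149.5 CPM (90 UMIs) in DTX, beside 6.95 and 3.502 CPM in cells without *Acta2*. Over all of cluster 1 in DTX, *Des* was in only 16 cells, with 29 of its 105 UMIs in 1 cell.

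Late smooth muscle genes had few UMIs in the *Acta2*-high fibroblast-like cells, with 8 and 2 UMIs of *Myh11*, 4 and 13 of *Cnn1*, 26 and 30 of *Actg2* and 1 and 1 of *Lmod1*. These cells held 1232442 and 601998 UMIs in all, so a small count need not mean a low level. For *Cnn1* in DTX it does not show a level below the 22.7 CPM of pericyte-like cells. All cells of cluster 1 together held 15 and 3 UMIs of *Myh11*, 7 and 16 of *Cnn1*, 39 and 32 of *Actg2* and 2 and 1 of *Lmod1*. In DTX the cluster held *Cnn1* in 4 cells, with 9 UMIs in 1 cell, and *Actg2* in 8 cells, with 15 in 1. Most of the few *Cnn1* and *Actg2* UMIs of the cluster thus lay in its *Acta2*-high cells. Of pericyte markers, *Rgs5* had 53 UMIs in PBS (19 in cells without *Acta2*; 1 cell of cluster 1 held 50) and 3 in DTX (22), *Notch3* 10 and 3, and *Abcc9* 3 and 1. The 12 pericyte markers summed to 451 against 296 CPM in PBS and to 110 against 150 CPM in DTX, with 2 and 4 of them at 0 in the *Acta2*-high cells. Of the contractile partner genes, 19 of 24 were higher in both libraries and 7 at least 2-fold, where 46.4% and 2.21% of 7116 genes were, among them *Cnn2* (198 against 26.9 CPM in PBS, 188 against 38.3 in DTX), *Csrp1* (355 against 99.0 and 424 against 111 CPM) and *Actn1* (224 against 72.4 and 243 against 85.7 CPM).

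Matrix and adhesion genes associated with myofibroblasts split within the same cells. Of 28, 17 were higher in the *Acta2*-high cells in both libraries and 8 at least 2-fold, beside the same 46.4% and 2.21% of all genes, and none was at least 2-fold lower in both. *Lrrc15* was at 583 against 116 CPM in PBS and 513 against 107 in DTX, *Col12a1* at 905 against 205 and 844 against 165 CPM, *Tnc*, the gene of the wound matrix protein tenascin C, at 1402 against 323 and 1427 against 435 CPM, and *Postn*, of periostin, at 3754 against 1826 and 2957 against 1136 CPM. *Col3a1* was lower, at 16345 against 27215 and 14680 against 22146 CPM, as were *Fn1* (1534 against 2320 and 832 against 1794 CPM) and *Fbn1* (586 against 1039 and 475 against 749 CPM), while *Col1a1* was at 13967 against 11205 and 13033 against 10485 CPM. Of 23 regulators *Tgfb3* was at least 2-fold higher in both, and *Klf4*, a factor that restrains smooth muscle genes, and *Tgfbr2* were at least 2-fold lower in both: *Klf4* was at 142 against 479 CPM in PBS and 106 against 480 in DTX, and *Tgfbr2* at 129 against 313 and 151 against 378 CPM.

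**Figure D5:**
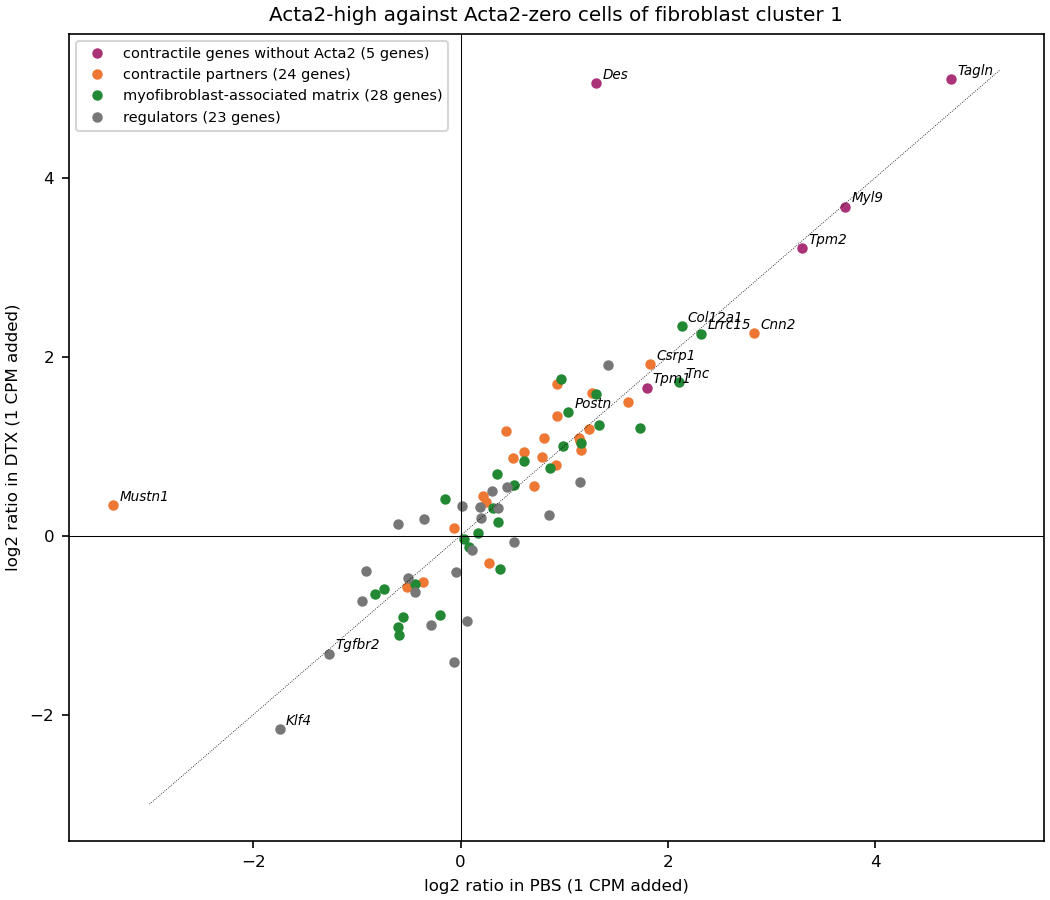
Log2 ratio (1 CPM added) of *Acta2*-high over *Acta2*-zero cells of fibroblast cluster 1 in PBS (horizontal) against DTX (vertical), for genes with at least 50 UMIs in both: 5 contractile genes, 24 partners, 28 matrix genes and 23 regulators; the dotted line marks equal ratios. *Tagln*, *Myl9* and *Tpm2* lie far up near the line, *Des* lies above it, and *Klf4* is lowest in DTX and *Mustn1* in PBS, at -3.35.

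Lists around the contractile genes moved less between the libraries than the genes themselves. Of all 5596 genes with at least 50 UMIs in pericyte-like cells, 51.1% were lower in DTX and 48.9% higher. At least 2-fold lower were 1.93% and at least 2-fold higher 2.27%, and these shares stand beside each list of this paragraph. In pericyte-like cells 20 of 29 contractile partners were lower in DTX and 9 higher, with a median log2 ratio of -0.13. Of them 1, *Itga8*, was at least 2-fold lower (27 and 23 UMIs). The cytoplasmic actins *Actb* (8994 and 7763 CPM) and *Actg1* (2041 and 1530 CPM) and the light chain *Myl6* (2968 and 2291 CPM) were among the lower ones, and *Cnn3* was at 256 and 313 CPM. Of 24 regulators 13 were higher and 11 lower (median 0.05). *Ednrb*, an endothelin receptor, was at 263 CPM (227 UMIs) and 628 CPM (1052 UMIs; 1.25, interval 1.05 to 1.47), and *Klf4* at 125 and 59.7 CPM (-1.06, interval -1.48 to -0.66), beside *Ctgf* with 55 and 29 UMIs (-1.82). *Tgfb1* was at 61.4 and 120 CPM (0.96, interval 0.52 to 1.43). Of 25 matrix genes 14 were higher and 11 lower, with *Cthrc1* (64 and 19 UMIs) and *Lox* (107 and 96) at least 2-fold lower and *Fap* (21 and 95) at least 2-fold higher, and *Tnc* at 426 and 681 CPM. *Itga8*, *Ctgf*, *Cthrc1* and *Fap* here, and *Ednrb* and *Tnnc2* in fibroblast-like cells, have too few UMIs for the naming rule and were named after their values were seen.

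Of all 11816 genes with at least 50 UMIs in fibroblast-like cells, 67.5% were higher in DTX and 32.5% lower. At least 2-fold higher were 2.67% and at least 2-fold lower 1.4%, and these shares stand beside each list of this paragraph. In fibroblast-like cells 22 of 28 contractile partners were higher in DTX and none was past 2-fold, with a median of 0.22 beside 0.12 over all genes. *Cnn2* was at 27.4 and 49.2 CPM, *Actn1* at 46.4 and 77.2 CPM and *Csrp1* at 121 and 192 CPM, and *Mustn1* was lower, at 16.5 and 10.7 CPM. Of 26 regulators 13 were higher and 13 lower, with *Tgfb1* at 43.7 and 96.3 CPM (1.12, interval 1.02 to 1.26) and *Ednrb* at 47 and 60 UMIs past 2-fold. Of 28 matrix genes 17 were higher and 11 lower and none was past 2-fold. *Tnc* was at 457 and 832 CPM, while *Col1a2* was at 19785 and 12975 CPM and *Thbs1* at 2399 and 1490 CPM. Of 21 striated muscle genes 5 had at least 50 UMIs, all 5 lower in DTX and 1, *Tnnc2* (50 and 2 UMIs), past 2-fold, and none had as many in pericyte-like cells.

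Across 17 sums of cells by class and library with at least 50 cells, the genes whose levels went most with *Acta2* were *Abcc9* (Pearson's r = 0.964), *Pde1a* (0.944), *Avpr1a* (0.942), *Nr2f1*, *Pde3a*, *Rem1*, *Pla2r1* and *Pdgfrb* (0.912). With *Myh11* these were *Gucy1a1* (0.987), *H2-M9* (0.986), *Higd1b* (0.984), *Gucy1b1*, *Trpc6*, *Adra2a*, *Colec11* and *Foxs1* (0.952). The 2 lists of 8 share no gene, but lists so short beside all genes compared say little about how alike *Acta2* and *Myh11* are. Among the contractile genes themselves r with *Myh11* was 0.987 for *Lmod1*, 0.966 for *Actg2* and 0.963 for *Cnn1*, and 0.844 for *Acta2*. With *Acta2* it was 0.912 for *Des*, 0.907 for *Myl9* and 0.891 for *Tagln*, but 0.700 for *Tpm2* and 0.589 for *Tpm1*. The sums share libraries, and the correlations over them describe these data only.

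The filter on mitochondrial UMIs left out a larger share of the contractile genes than of all UMIs. Cells that passed the filter held 83.7% of all UMIs in PBS and 74.7% in DTX, but 60.9% and 53.6% of *Acta2* UMIs and 27.2% and 34.5% of *Myh11* UMIs, and 28.3% and 26.2% of those of *Lmod1*. Of *Rgs5* UMIs they held 46.6% and 47.7%, and of *Col1a1* UMIs 92.6% and 77.0%. In cells with over 10% mitochondrial UMIs *Myh11* reached 164.5 and 111 CPM over all such cells, and in those that passed 7.03 and 12.4 CPM. With the limit at 10%, pericyte-like cells numbered 119 and 210, and *Myh11* was at 1024 CPM (1416 UMIs) and 527 CPM (1483 UMIs; -0.96), *Cnn1* at 101 and 31.3 CPM (-1.66), *Actg2* at 356.5 and 142.5 CPM (-1.32) and *Des* at 620.4 and 727.5 CPM (0.23). Again 9 of 10 genes were lower in DTX and *Des* higher.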

How the data were processed

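Gene counts of single cells from 2 libraries (10x Chromium 3' v3), 1 per condition, were used. The authors made the deposited UMI counts with Cell Ranger 6.1.1 on the mm10 genome, per the submitters' processing notes. How reads shared by similar genes were assigned is not given in the sources used here. The study describes 2 technical and no biological replicates.

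Barcodes were kept if they had 500 genes or more and mitochondrial UMIs at 6% or below (8326 labelled PBS and 7188 labelled DTX). Doublets were scored with Scrublet: 382 PBS cells passed its own threshold, and as it called 0 DTX cells, its 575 top-scoring cells (8%) were taken out there. Library totals were 105511870 and 81858751 UMIs in the files and 81235634 and 54872675 in kept cells. Cells were clustered with Seurat 5.3.0 (R 4.3.3) on 2000 variable genes without the contractile genes and their partners, with 30 components at resolution 0.2 (0.5 among pericyte-like cells), and named from marker lists. The members and lists were chosen with earlier results of these data known.

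Counts were summed per class and library (Python 3.11.15, scanpy 1.11.5, scipy 1.17.1, numpy 2.4.6) and given as CPM of the class. Intervals (95%) are exact: Poisson for CPM, Clopper-Pearson for shares, and conditional binomial for ratios. They cover counting error only, since cells are not replicates, and no p-value was computed. Ratios have 1 CPM added. A gene counted as compared with at least 50 UMIs and as called at 2-fold. For shares, cells were thinned to 2000 UMIs. The ratio step was run on simulated Poisson counts. These hold no spread between cells, so they check the calculation only and not whether the intervals suit these data. Of each list, the text names genes with at least 200 UMIs by highest level and by largest difference in each direction, by a written rule, and says which others it names. Partner, matrix and regulator genes named for *Acta2*-high cells were chosen after their values were seen.

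Alternatives were other filters on cells, doublets kept, clustering with all variable genes, another resolution, other totals, added CPM, UMI limits and depths of thinning. Leaving out clusters led by genes of another class, and weighting DTX clusters as in PBS, were added after seeing the data.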

Additional observations from a re-analysis of the deposited data

Results flagged for a closer look

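For 6 contractile genes and for their sum, the difference between the libraries went one way in pericyte-like cells and the other way in fibroblast-like cells. *Acta2* had log2 ratios (DTX over PBS) of -0.70 in pericyte-like and 0.70 in fibroblast-like cells, *Tagln* of -0.72 and 0.70, and *Myl9* of -0.85 and 0.91. The tropomyosin genes had ratios of -0.24 and 0.46 (*Tpm1*) and of -0.53 and 0.74 (*Tpm2*), and *Actg2* of -1.32 and 0.97. The sum of the 10 genes had -0.61 and 0.61. The difference between the cell classes was not tested, since each condition has 1 library. With the fibroblast clusters of DTX weighted as in PBS, *Acta2* in fibroblast-like cells was at 0.085 and the sum at 0.32, a weighting chosen after seeing the data. *Des* was above 0 in both classes.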

How the results depend on the processing

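No paired analysis was possible because each condition has 1 library. Of 73 values recomputed under alternatives, 51 stayed near the value given (ratios and shares within its counting interval) and 22 moved further. No ratio among them changed sign, and shares and counts cannot. Some alternatives changed little, so the 51 do not measure robustness. Resolution 0.5 gave the same numbers of pericyte-like (56 and 109) and fibroblast-like cells (3069 and 660) and the same ratios. Clustering with all variable genes used 2000 genes instead of 1978. Below, ratios are log2, DTX over PBS, unless pericyte-like over fibroblast-like cells is named. With doublets kept, the sum was -0.71 in pericyte-like and 0.53 in fibroblast-like cells, *Acta2* in pericyte-like cells -0.82, and pericyte-like over fibroblast-like cells in PBS 5.10. With at most 10% mitochondrial UMIs, *Acta2* was -0.62 in pericyte-like and 0.56 in fibroblast-like cells, pericyte-like over fibroblast-like cells 5.22 in PBS and 3.99 in DTX, and 2 genes instead of 1 were past 2-fold in fibroblast-like cells. When cells above 2000 genes were dropped, no pericyte-like cluster was found, so its results have no value. The fibroblast-like class (545 and 69 cells) then gave 3.10 for the sum and 2.03 for *Acta2*, with 5 genes past 2-fold. An *Acta2* UMI was in 4.19% of its thinned PBS cells. It held the 5 and 4 pericyte-like cells left, with *Rgs5* at 49.2 and 585 CPM. No myocyte-like cluster was found in this setting either. The largest ratios past 2-fold were those of *Des* (84.6 and 1987 CPM), *Tpm2* (218 and 2259 CPM) and *Tpm1* (472 and 3788 CPM). These genes were highest in the myocyte-like cells of the main setting, and whether such cells joined the class was not tested. Totals without the contractile and mitochondrial genes gave 5.11 for pericyte-like over fibroblast-like cells in PBS. The share of fibroblast-like cells with *Acta2* was 15.9% and 19.1% without thinning, and 4.74% in PBS at 1000 UMIs. With at least 200 UMIs, 1 gene was past 2-fold in pericyte-like cells. Without clusters led by genes of another class, pericyte-like cells gave -0.65 for the sum and -0.79 for *Acta2*. With DTX clusters weighted as in PBS, fibroblast-like cells gave 0.32 for the sum and 0.085 for *Acta2*. For the other moves the cause was not tested. Intervals cover counting error only, and the rarest genes (*Cnn1*, *Lmod1*) are limited by depth.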
